A study of Mus musculus with 28 samples.

Results

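The adult heart and the cerebral cortex of control mice were compared gene by gene, with the selenoproteins, the antioxidant enzymes and the iron genes followed as groups within the tissue difference. The comparison used 6 of the 28 libraries of the series: 3 of heart and 3 of cortex, all from the postnatal day 75 (P75) controls, chosen by their labels alone. The labels give these mice as C57BL/6J with wild-type Gpx4 (spelled Gxp4 in most of them) and do not give their Sepsecs genotype. The other adult libraries, 10 in all, came from mice with the Sepsecs Y334C mutation and the Gpx4 U/C genotype, and 6 newborn control libraries (P1, labelled Y334C WT) served for a comparison of ages. Replicates were mice by the design text of the series, but no label says which heart and which cortex came from 1 animal. Each library held tags from the 3′ ends of polyadenylated RNA, so a level is a number of tags and does not scale with gene length.

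Selenoproteins carry selenocysteine, which is built on its own tRNA by a short series of enzymes ending in Sepsecs and is inserted at a UGA codon with the help of a hairpin in the mRNA. Several of them are glutathione peroxidases and thioredoxin reductases, which reduce peroxides and thiols, and Gpx4 reduces lipid peroxides in membranes and so opposes ferroptosis, an iron-dependent form of cell death. Heart muscle is packed with mitochondria and burns mainly fatty acids, whereas cortex consists of neurons and glia that live largely on glucose. Both tissues use oxygen at a high rate, and both depend on Gpx4.

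Before the values, 6 promoter windows are shown. Their genes stand in the muscle and antioxidant groups described here, differed between the tissues, and were picked for a motif in the window. They therefore do not show how common a motif is in its group. Srxn1 and Gclm were higher in cortex, while other genes with TGACNNNGC, among them Sod1 and Nfe2l2, were higher in heart and are not printed. Each window is from RefSeq on GRCm38.p6 and runs from 250 bases before to 50 bases after the annotated transcription start, read 5′ to 3′ on the gene's strand. Capitals mark the matches named in the text. The CArG box is the site of serum response factor and the MEF2 site that of the MEF2 factors, and TGACNNNGC is the core of the antioxidant response element. In the windows below, TATAAA of Actc1 lies 34 bases and TGACNNNGC of Srxn1 29 bases after the annotated start. The other marked matches lie before it. The windows of Actc1 (cardiac actin; chr2:114052826-114053125, minus strand), Myl3 (ventricular myosin light chain; chr9:110763428-110763727, plus strand) and Myl7 (atrial myosin light chain; chr11:5898733-5899032, minus strand) held a CArG box, and that of Actc1 also TATAAA. The window of Ttn (titin; chr2:76982498-76982797, minus strand) held a MEF2 site. The windows of Srxn1 (sulfiredoxin; chr2:152105274-152105573, plus strand) and Gclm (the modifier subunit of glutamate-cysteine ligase; chr3:122245307-122245606, plus strand) held TGACNNNGC.
Actc1: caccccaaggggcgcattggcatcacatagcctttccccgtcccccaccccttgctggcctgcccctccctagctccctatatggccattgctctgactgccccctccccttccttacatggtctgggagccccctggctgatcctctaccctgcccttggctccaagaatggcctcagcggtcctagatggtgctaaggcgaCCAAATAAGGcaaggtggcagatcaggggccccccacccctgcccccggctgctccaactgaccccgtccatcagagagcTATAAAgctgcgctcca
Myl3: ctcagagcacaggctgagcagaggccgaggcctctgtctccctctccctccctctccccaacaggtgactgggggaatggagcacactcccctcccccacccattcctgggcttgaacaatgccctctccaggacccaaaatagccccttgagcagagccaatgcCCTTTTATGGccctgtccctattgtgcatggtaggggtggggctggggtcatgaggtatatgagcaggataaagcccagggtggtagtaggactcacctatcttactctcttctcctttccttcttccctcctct
Myl7: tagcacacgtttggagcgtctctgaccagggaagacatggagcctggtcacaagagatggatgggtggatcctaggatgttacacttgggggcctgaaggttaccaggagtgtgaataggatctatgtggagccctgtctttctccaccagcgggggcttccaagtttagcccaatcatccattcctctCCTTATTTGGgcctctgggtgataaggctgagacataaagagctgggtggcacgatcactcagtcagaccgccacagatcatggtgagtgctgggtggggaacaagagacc
Ttn: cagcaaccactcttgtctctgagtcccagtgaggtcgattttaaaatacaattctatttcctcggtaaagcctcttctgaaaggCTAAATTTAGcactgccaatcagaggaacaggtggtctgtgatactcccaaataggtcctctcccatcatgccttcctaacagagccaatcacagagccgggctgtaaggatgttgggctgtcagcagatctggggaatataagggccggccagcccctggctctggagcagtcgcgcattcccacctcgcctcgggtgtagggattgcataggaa
Srxn1: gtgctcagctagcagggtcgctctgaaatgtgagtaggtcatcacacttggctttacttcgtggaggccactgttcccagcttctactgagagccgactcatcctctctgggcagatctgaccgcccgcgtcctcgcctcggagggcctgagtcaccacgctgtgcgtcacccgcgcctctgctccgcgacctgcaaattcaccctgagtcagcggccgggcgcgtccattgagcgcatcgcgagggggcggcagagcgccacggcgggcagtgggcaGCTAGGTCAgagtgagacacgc
Gclm: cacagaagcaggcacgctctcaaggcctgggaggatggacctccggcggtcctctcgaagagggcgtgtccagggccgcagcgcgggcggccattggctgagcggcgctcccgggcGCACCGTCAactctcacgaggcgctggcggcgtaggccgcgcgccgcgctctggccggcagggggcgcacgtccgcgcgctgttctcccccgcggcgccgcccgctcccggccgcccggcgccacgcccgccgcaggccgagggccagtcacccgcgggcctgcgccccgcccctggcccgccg

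Each motif was searched on both strands in the first listed window of each gene, over 27025 genes with a window. A CArG box stood in 5 of 22 sarcomere genes with a window (22.7%), in 32 of 1373 genes at least 4-fold higher in heart (2.33%), in 18 of 1871 genes at least 4-fold higher in cortex (0.962%), in 1.57% of all windows and in 1.3% of the windows of tested genes. For the MEF2 site the shares were 13.6% of the sarcomere genes, 4.88% of the heart-enriched and 1.71% of the cortex-enriched genes, against 3.26% of all windows and 2% of the windows of tested genes. The sequence TATAAA stood in 5 of 20 selenoprotein windows, among them those of Msrb1 (higher in heart) and Dio2 (higher in cortex), against 14.2% of all windows and 7.25% of those of tested genes. TGACNNNGC stood in 4 of 14 windows of the NRF2 and NADPH genes, 5 of 22 windows of the other antioxidant enzymes and 1 of 20 selenoprotein windows, against 12.5% of all windows and 14.6% of those of tested genes. These are matches of letters, and no test was made of them.

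Total counts were 2997738 to 6593897 in cortex and 4737953 to 7305996 in heart, and 1 count was worth 0.113 to 0.268 CPM, the count per library scaled to a common total by trimmed mean of M values (TMM). Counts on mitochondrially encoded genes took 5.87% to 7.33% of each cortex library and 40.7%, 20.2% and 29.1% of heart libraries 1, 2 and 3. These shares have 95% Wilson intervals within 0.037 percentage points, for counting error only. TMM factors were 1.35 to 1.375 in cortex and 0.513, 0.898 and 0.851 in heart. Xist stood at 170 and 190 CPM in the libraries numbered 1 and at most 4.44 CPM in the others, and Ddx3y the other way round, in both tissues. Heart 2 stood apart by its atrial transcripts and heart 1 by its fat transcripts, as given below, and Ccdc36 was at 708, 479 and 455 CPM in cortex 2, heart 1 and heart 2 against at most 6.1 CPM elsewhere. Cortex 2, the library with the lowest total, correlated in log2 CPM at 0.931 and 0.925 with cortex 1 and 3. Cortex 1 and 3 correlated at 0.98, and the heart libraries at 0.91 to 0.94.

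The tissues separated as their labels say. Myh6, the main myosin heavy chain of adult mouse heart muscle, was at 11806, 5952 and 5803 CPM in hearts 1 to 3 and at 2.09, 0.488 and 2.94 CPM in the cortex libraries. Snap25, a protein of synaptic vesicle release, was at 1833, 492 and 2025 CPM in cortex and at 16.3, 0.472 and 14.1 CPM in heart. The groups did not overlap for either gene. Actc1, Tnnt2, Tnni3 and Myl2, all of the cardiac sarcomere, lay between 3637 and 17476 CPM in heart and at most at 4.97 CPM in cortex. Lung and thymus genes were too low for a test in both tissues.

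Some genes known from neighbouring regions or tissues varied between libraries of 1 tissue. Drd1 and Penk, known from striatum, are also made in cortex, and the atria belong to the heart. The D1 dopamine receptor gene Drd1 was at 119, 280 and 77.7 CPM, and Penk, which encodes enkephalin, at 716, 1027 and 406 CPM, highest in cortex 2. The summed level of 9 genes known from striatum was 1381 to 3518 CPM in cortex. Myl7 was at 7.76, 788 and 2.62 CPM in hearts 1 to 3, and Nppa, the atrial natriuretic peptide gene, at 337, 4435 and 214 CPM. Without heart 2, the log2 difference of Myl7 fell from 10.09 to 4.46 (adjusted p = 0.00279). Myl4, an atrial light chain also made outside the heart, was at 3.48, 435 and 4.64 CPM in heart and 34.8, 6.34 and 28.7 CPM in cortex, and its log2 difference of 2.66 (adjusted p = 0.161) turned to -2.45 (adjusted p = 0.0189) without heart 2.

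Fat genes were highest in heart 1. Cfd, which encodes the complement factor adipsin of fat cells, was at 267, 16 and 5.45 CPM in heart and at 0 counts in cortex. Ucp1, the uncoupling protein of brown fat, was at 69.3, 0 and 5.04 CPM and Plin1, a lipid droplet protein, at 58.3, 2.60 and 0.605 CPM. The summed level of 6 fat genes was 68.8 to 636 CPM in heart and 2.94 to 6.58 CPM in cortex. Haemoglobin transcripts took 0.592%, 2.40% and 0.373% of the 3 heart libraries and at most 0.059% of a cortex library. The part of striatal, atrial, fat and blood transcripts in the differences below was not tested, beyond leaving out each library in turn.

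Of 13308 genes tested, 6923 (52.0%) differed between heart and cortex at an adjusted p under 0.05 in the edgeR quasi-likelihood test. Of all genes tested, 3141 (23.6%) were higher in heart and 3782 (28.4%) higher in cortex. These shares are the background of each list count below. At least 4-fold differences were found for 1860 genes in favour of heart (14.0%) and 2597 in favour of cortex (19.5%). The median log2 difference (heart minus cortex) of all tested genes was -0.07. With library totals in place of TMM factors this median moved by -0.85 and the split became 1692 to 5636, so that 23.1% of the called genes were higher in heart instead of 45.4%. A call that was lost with library totals is named as such beside its gene. Non-overlap of the groups is stated gene by gene, and its share over all tested genes was not counted, so it does not set a named gene apart. In bulk tissue, fewer cells of a type and less RNA per cell cannot be told apart.

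**Figure D1:**
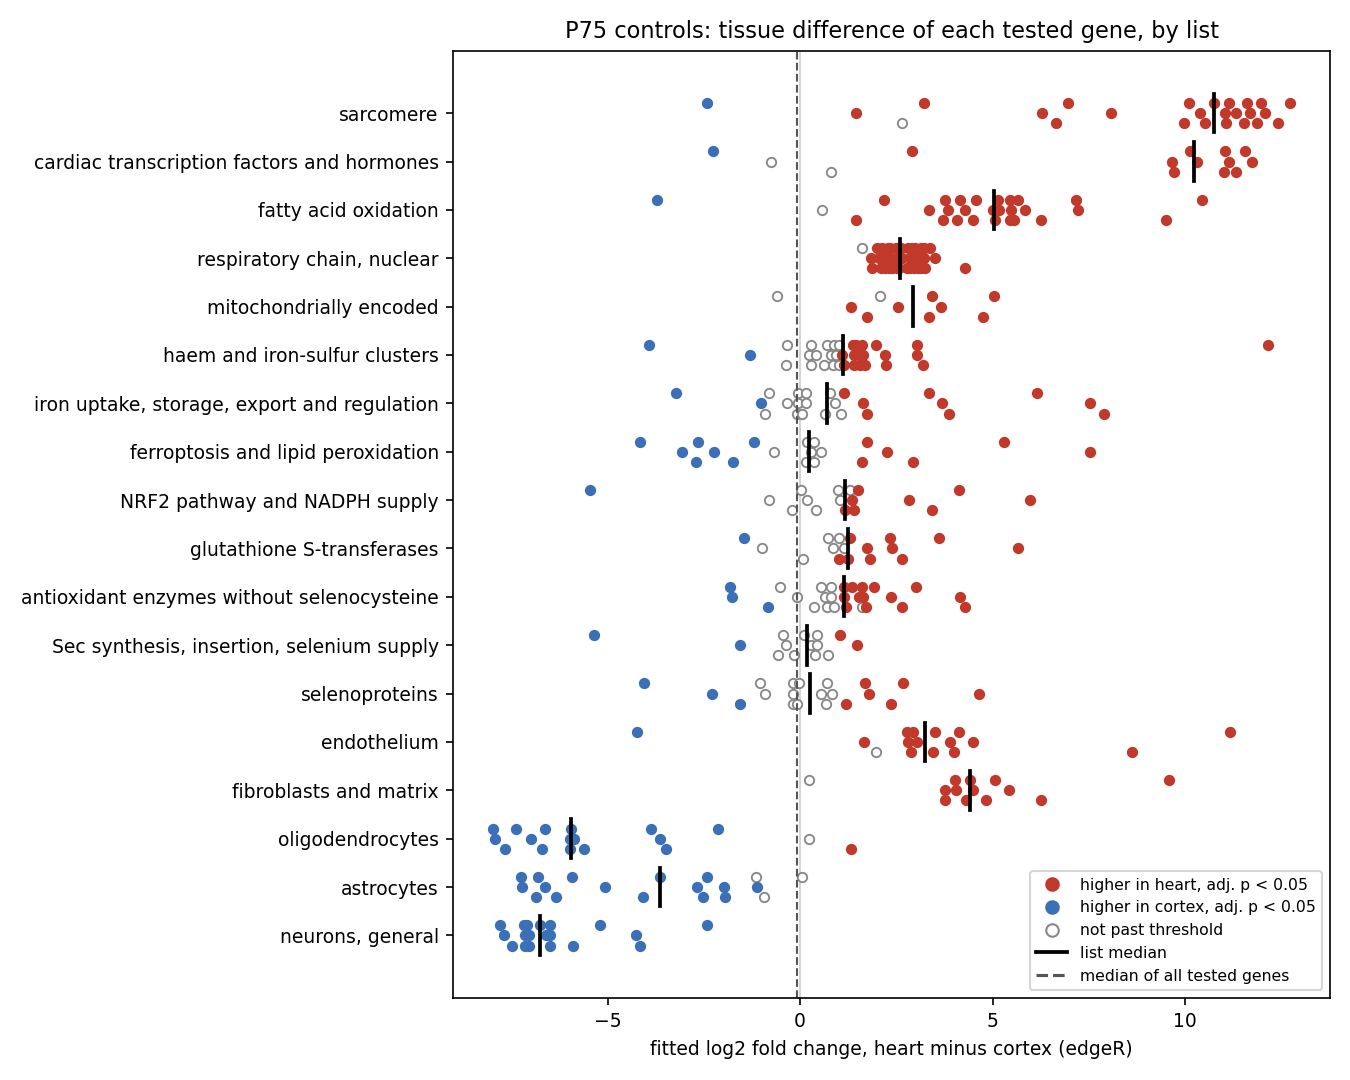
Fitted log2 difference (heart minus cortex, x axis) of each tested gene in 18 lists (y axis), from 3 heart and 3 cortex libraries. Filled points passed an adjusted p of 0.05, black bars are list medians and the dashed line is the median of all tested genes (-0.07); sarcomere genes lie farthest to the right, neuronal genes farthest to the left, and the selenoproteins on both sides of 0 around a median of 0.25.

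The 12 genes with the largest difference in favour of heart, among those with a mean of at least 100 CPM there, were mostly genes of contraction and muscle energy. Myl3 was at 32653, 27362 and 17496 CPM in heart and at most 6.44 CPM in cortex. Mb, which encodes the oxygen-binding haem protein myoglobin, was at 37589, 16967 and 13942 CPM in heart and at most 7.34 CPM in cortex. Csrp3 (muscle LIM protein), Ckm (muscle creatine kinase), Hrc (a calcium-binding protein of the sarcoplasmic reticulum), Cox8b (a muscle subunit of cytochrome oxidase) and Hspb7 (a small heat shock protein of heart) had differences of 12.72, 12.05, 11.97, 11.99 and 12.06 on the log2 scale. Heart and cortex libraries did not overlap for any of these genes. Apobec2, Klhl31 and Gpihbp1 had no count in cortex, and their heart levels were at least 1335-fold, 975-fold and 741-fold higher, taking 3 counts over the cortex group as the floor. Gpihbp1 is the endothelial anchor of lipoprotein lipase.

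The 12 leading genes of cortex included synaptic and receptor genes. Calb1, which encodes the calcium buffer calbindin, was at 140, 119 and 122 CPM in cortex, and 3 counts in all 3 heart libraries gave a ratio of 547 (95% counting interval 187 to 2655). Grin1, the obligatory subunit of NMDA receptors, was at 134, 88.5 and 148 CPM in cortex, with a ratio of 564 (193 to 2736). Cdk5r2 (an activator of the kinase Cdk5), Ngef, Cplx1 (complexin of synaptic vesicle release), Egr4, Trim9, Hrh3 (a histamine receptor), Spock3 and Glrb (the glycine receptor beta subunit) had log2 differences from -8.60 to -8.16. In each of them the lowest cortex library lay above the highest heart library.

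Among 25 sarcomere genes, 23 were higher in heart and 1 higher in cortex, with a median log2 difference of 10.74 against -0.07 over all tested genes. Set to its bound where cortex had no count, the median was 10.51. Ttn, the giant spring protein of the sarcomere, was at 4273, 4881 and 4003 CPM in heart and at most 1.47 CPM in cortex. Tnni1, the slow skeletal troponin I of the immature heart, was the exception, at 0.535, 1.18 and 0.202 CPM in heart and 2.78, 3.66 and 3.84 CPM in cortex (log2 difference -2.41 ± 0.62 SE, adjusted p = 0.00854). Myh7, the slow myosin heavy chain, was at 34.0, 21.0 and 18.8 CPM in heart and 5.39, 16.8 and 5.08 CPM in cortex, a difference of 1.46 that passed with all libraries (adjusted p = 0.0367). Its adjusted p was 0.144, 0.134 and 0.115 without cortex 1, cortex 3 or heart 1 and 0.43 with library totals, and its difference became 2.21 without cortex 2 (adjusted p = 0.00286).

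Genes of calcium handling and electrical activity differed less uniformly, with 14 of 22 higher in heart and 1 higher in cortex (median 2.15). Over all tested genes the shares were 23.6% and 28.4%. Pln, which encodes the calcium pump inhibitor phospholamban, was at 4223, 5131 and 6894 CPM in heart and at most 3.73 CPM in cortex. The pump itself, Atp2a2, is used by both tissues and was at 5503, 7171 and 10581 CPM in heart and 542, 324 and 583 CPM in cortex. The release channel Ryr2 and the calcium store protein Casq2 differed by 3.61 and 8.78. Kcnd2, a potassium channel of dendrites and heart, was the gene higher in cortex (-1.67 ± 0.37 SE, adjusted p = 0.00392).

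Of 14 cardiac transcription factor and hormone genes, 11 were higher in heart and 1 in cortex, and 8 had no count in one of the tissues (median 10.22, or 7.80 at the bound). The T-box factor Tbx5 was at 116, 87.3 and 39.5 CPM in heart, at least 482-fold above cortex, and the zinc finger factor Gata4 at 47.9, 27.6 and 73.4 CPM, at least 318-fold above cortex. For Gata6, Hand2 and Nkx2-5 the bounds were 393-fold, 337-fold and 302-fold. Tbx20 had 1 count in cortex and 1262 in heart, a ratio of 1825 with a 95% counting interval of 327 to 72140. Mef2c, which acts in muscle and in excitatory neurons, went the other way, with 621, 466 and 885 CPM in cortex against 145, 121 and 145 CPM in heart (-2.26 ± 0.37 SE, adjusted p = 0.000566).

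Fatty acid oxidation genes were higher in heart in 26 of 28 cases (median 5.03). Cd36, the fatty acid transporter of the cell surface, was at 415, 468 and 837 CPM in heart and at most 0.732 CPM in cortex. Lpl, which frees fatty acids from lipoproteins, was at 4508, 5622 and 7398 CPM in heart against 36.8 to 44.9 CPM in cortex. Fabp3, Acadl, Cpt2 and Hadha, which act in fatty acid binding, dehydrogenation, mitochondrial import and the later steps of beta-oxidation, differed by 7.22, 6.26, 5.44 and 5.00. The carnitine palmitoyltransferase forms parted by tissue: Cpt1c, the neuronal form, was at 35.7, 54.6 and 36.8 CPM in cortex and 2.14, 2.83 and 4.44 CPM in heart, while Cpt1a was higher in heart (1.46 ± 0.37 SE, adjusted p = 0.00738, or 0.291 with library totals). Cpt1b, the muscle form, had 1 count in heart 2 and none in the other libraries, too few for a test. How the authors' counting assigned its reads is not given, so this does not show that its level is low.

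The nuclear genes of the respiratory chain were higher in heart in 41 of 42 cases, in a narrow range around a median of 2.59. Sdhb, an iron-sulfur subunit of complex II, was at 2368, 1211 and 1889 CPM in heart and 156, 145 and 183 CPM in cortex. Uqcrc1, Atp5a1 and Cox4i1, of complexes III, V and IV, differed by 3.21, 2.55 and 2.35. Sdhd did not pass (1.60 ± 0.63 SE, adjusted p = 0.0581, or 0.0417 without heart 2). Ndufa5, of complex I, had the largest difference, 4.29, but stood at 9746 CPM in heart 1 against 1158 and 1856 CPM in the others, and its difference was 2.80 without heart 1.

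Of 15 mitochondrially encoded genes, 10 were tested, and 8 of these were higher in heart (median 2.93). The others, mt-Nd4l, mt-Co2, mt-Co3, mt-Atp6 and mt-Atp8, had at most 4 counts in a library. How the authors' counting assigned their reads is not given, so this does not show that their levels are low. mt-Cytb was at 93976, 38465 and 86679 CPM in heart and 8900, 5074 and 7752 CPM in cortex. mt-Nd2 and mt-Nd4 were higher in every heart library than in any cortex library and highest in heart 1, at 183540 and 315630 CPM. mt-Nd6, which lies on the opposite strand to the other protein genes, was at 99.8, 43.2 and 22.8 CPM in heart and 90.0, 88.3 and 75.1 CPM in cortex (-0.61 ± 0.48 SE, adjusted p = 0.313). Without heart 1 it was -1.37 (adjusted p = 0.0101).

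Many enzymes of energy metabolism exist as a muscle form and a brain form. Of 32 such genes, 16 were higher in heart and 9 in cortex, beside 23.6% and 28.4% of all tested genes. In creatine kinase, Ckm was at 1551, 1711 and 1736 CPM in heart and at most 0.696 CPM in cortex, and Ckb, the brain form, was at 1558, 1453 and 1302 CPM in cortex and 64.7, 94.2 and 78.2 CPM in heart. The mitochondrial forms Ckmt2 (heart) and Ckmt1 (cortex) differed by 11.52 and -6.31. Eno3 and Eno2, the muscle and neuronal enolases, differed by 9.41 and -7.02. The glucose transporter Slc2a4, which responds to insulin, was higher in heart (9.50), and Slc2a1 and Slc2a3, the transporters of the blood-brain barrier and of neurons, were higher in cortex (-2.44 and -5.73).

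Other families did not exchange forms in this way. Cox6a2, Cox7a1 and Cox8b, the muscle forms of cytochrome oxidase subunits, differed by 9.66, 10.82 and 11.99. The general form Cox7a2 was also higher in heart (1.99, adjusted p = 0.00325), Cox8a was lower there (-1.05, adjusted p = 0.0238) and Cox6a1 did not pass (-1.02, adjusted p = 0.071). The call for Cox8a was lost without cortex 1, cortex 3, heart 2 or heart 3 (adjusted p of 0.113, 0.0623, 0.053 and 0.0871), and Cox6a1 passed without cortex 2 or heart 1 (0.0422 and 0.0168). Aldoc, the brain aldolase, was at 1054, 907 and 963 CPM in cortex and at most 9.36 CPM in heart. Aldoa, the muscle form, differed by 1.23 (adjusted p = 0.025) and lost its call without any 1 cortex library or heart 3 (0.0777, 0.0928, 0.0664 and 0.0709), or with library totals (0.481).

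Slc25a4, Pygm, Hk2 and Pgam2, the muscle forms of the ADP/ATP carrier, glycogen phosphorylase, hexokinase and phosphoglycerate mutase, differed by 4.31, 5.44, 6.23 and 8.24. Pygb, the brain form of the phosphorylase, was higher in heart too (3.63, or 2.32 without heart 1), and Pfkp, the platelet form of phosphofructokinase, was higher in cortex (-1.66).

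**Figure D2:**
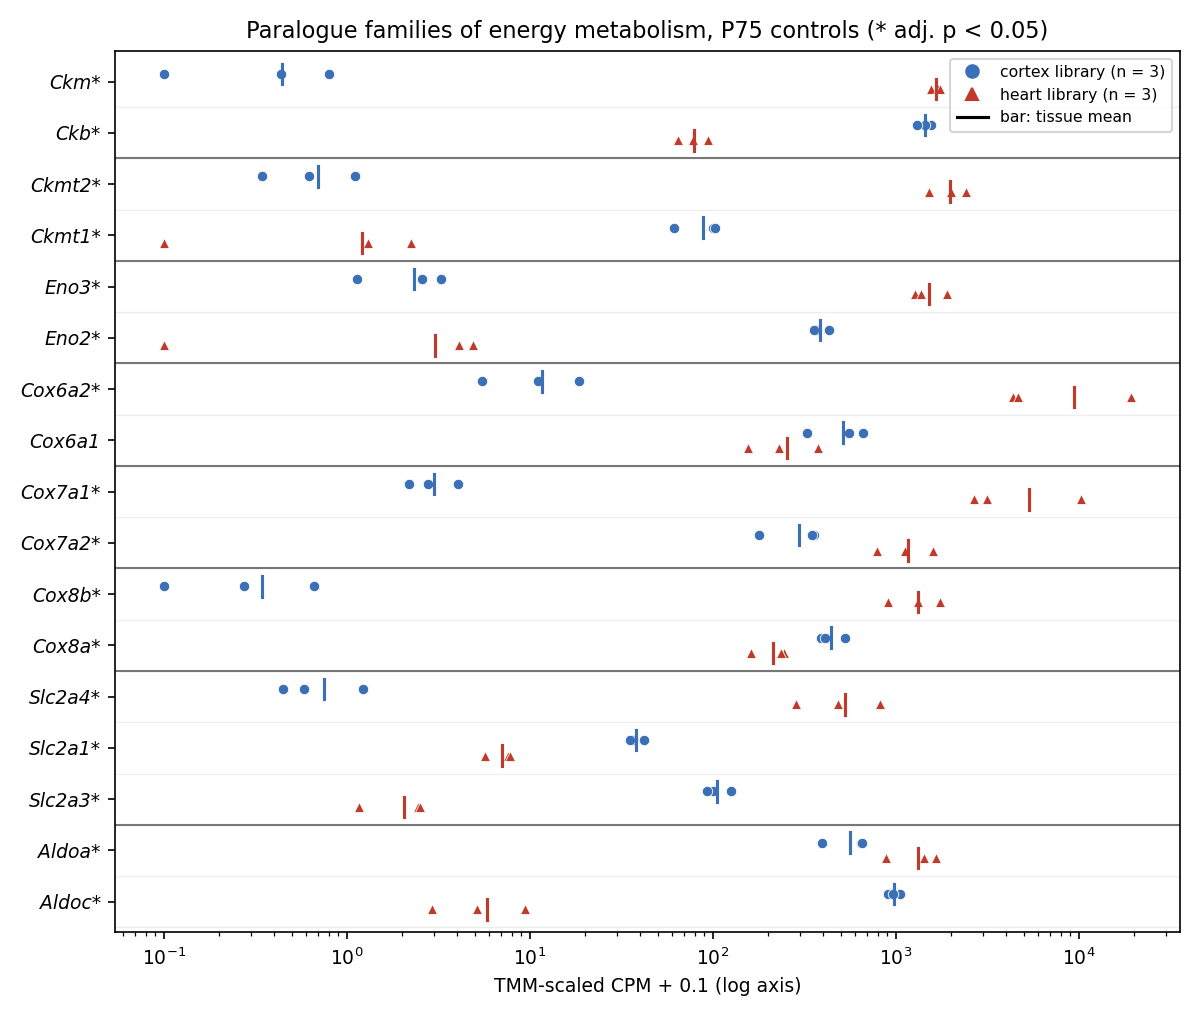
TMM-scaled CPM plus 0.1 (log x axis) of 17 genes in 8 families (y axis, families parted by lines) in the 3 cortex libraries (circles) and 3 heart libraries (triangles), with a bar at each tissue mean. Ckm and Ckb, Ckmt2 and Ckmt1, and Eno3 and Eno2 exchange places between the tissues, while Cox6a1 overlaps.

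Of the 24 selenoprotein genes, 20 passed the count filter, and Dio1, Dio3, Gpx2 and Selenov did not. Against 23.6% of all tested genes higher in heart and 28.4% higher in cortex, 6 of the 20 were higher in heart and 3 in cortex. Their median log2 difference was 0.25, and -0.71 with library totals, which also changed the counts to 3 and 5. The summed level of all 24 was 1349 to 1583 CPM in heart and 1006 to 1302 CPM in cortex. These sums rest on the TMM factors, 0.513 to 0.898 in heart and 1.35 to 1.375 in cortex. They were not taken with library totals, so their order between the tissues depends on the scaling. The genes higher in heart were Gpx3, Msrb1, Txnrd3, Gpx4, Txnrd2 and Selenop, and those higher in cortex were Dio2, Selenoi and Selenow.

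Gpx3, the secreted glutathione peroxidase of plasma (ENSMUSG00000018339, chr11:54902453-54910377 of GRCm38), was at 223, 211 and 136 CPM in heart and 9.57, 3.90 and 9.03 CPM in cortex. Every heart library lay above every cortex library, with a log2 difference of 4.64 ± 0.45 (SE, n = 3 against 3, adjusted p = 2.49e-05). Gpx4, the phospholipid hydroperoxidase (chr10:80047166-80056439), was at 40.9, 13.2 and 12.5 CPM in heart and 6.61, 2.93 and 9.15 CPM in cortex. Its difference of 1.79 ± 0.57 (SE) passed with all 6 libraries (adjusted p = 0.024), and the groups did not overlap. Without heart 1 the difference was 1.02 (adjusted p = 0.098), and without cortex 1, without cortex 2 or with library totals the adjusted p was 0.0721, 0.0695 or 0.234. Gpx4 has processed copies in the mouse genome, and how the counting by the authors shared reads among them is not given.

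Gpx1, the abundant cytosolic peroxidase, was at 331, 272 and 139 CPM in heart and 118, 180 and 121 CPM in cortex. Heart 3 lay within the cortex range, and the difference of 0.82 ± 0.39 (SE) did not pass (adjusted p = 0.106). It passed without heart 3 (1.12, adjusted p = 0.0329) and turned to -0.11 with library totals.

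The thioredoxin reductases differed from each other. Txnrd2, the mitochondrial enzyme (chr16:18426384-18479073), was at 27.8, 26.0 and 32.5 CPM in heart and 10.1, 5.36 and 11 CPM in cortex (1.69 ± 0.36 SE, adjusted p = 0.00305, or 0.141 with library totals). Txnrd3, the thioredoxin-glutathione reductase (chr6:89643988-89675529), was at 10.7, 23.1 and 20.8 CPM in heart and 3.48, 3.41 and 3.73 CPM in cortex (2.35 ± 0.41 SE, adjusted p = 0.000907). The cytosolic Txnrd1 was at 25.9, 25.0 and 32.1 CPM in heart and 30.3, 23.7 and 30.8 CPM in cortex. For Txnrd2 and Txnrd3 all hearts lay above all cortices, whereas the Txnrd1 groups overlapped (-0.03 ± 0.29 SE, adjusted p = 0.938).

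Msrb1, which reduces oxidised methionine (chr17:24736642-24742778), was at 159, 115 and 123 CPM in heart and 26.4, 13.9 and 21.3 CPM in cortex. Every heart library exceeded every cortex library (2.68 ± 0.35 SE, adjusted p = 0.000161). Selenop, the plasma protein that carries selenium between organs (chr15:3268547-3280508), was at 237, 236 and 340 CPM in heart and 104, 104 and 148 CPM in cortex. The groups did not overlap, and the difference of 1.19 ± 0.33 (SE, adjusted p = 0.0129) lost its call without cortex 1 (1.08, adjusted p = 0.0847) and with library totals (0.36, adjusted p = 0.47).

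Dio2, which converts thyroxine to the active hormone and in brain is made by astrocytes (chr12:90724552-90738438), was at 113, 117 and 66.6 CPM in cortex and 6.15, 6.84 and 4.64 CPM in heart. This was the largest selenoprotein difference in favour of cortex, -4.07 ± 0.38 (SE, adjusted p = 2.03e-05). Selenoi, an ethanolamine phosphotransferase (chr5:30232581-30272427), was at 61.2, 28.5 and 37.9 CPM in cortex and 3.48, 11.6 and 11.1 CPM in heart (-2.28 ± 0.49 SE, adjusted p = 0.00308). Selenow, a small thiol-redox protein abundant in muscle and brain (chr7:15917208-15922402), was at 232, 130 and 286 CPM in cortex and 102, 43.9 and 73.8 CPM in heart (-1.57 ± 0.43 SE, adjusted p = 0.0112). The groups did not overlap for any of these genes.

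Most selenoproteins of the endoplasmic reticulum did not pass. Selenok was at 202, 103 and 168 CPM in cortex and 60.2, 76.9 and 115 CPM in heart, and Selenof at 130, 37.8 and 138 CPM against 21.1, 43.2 and 84.1 CPM. Their differences of -0.90 (adjusted p = 0.0706) and -1.04 (0.161) passed without cortex 2 (-1.15 with 0.0356 and -1.45 with 0.0461) or without heart 3 (-1.19 with 0.0385 and -1.65 with 0.042). Selenom was at 163, 56.2 and 36.7 CPM in heart and 51.2 to 70.7 CPM in cortex, so that 1 heart library lay above and 1 below all cortices. Selenos, Selenot and Selenon had differences of -0.09, -0.19 and 0.67 with adjusted p of 0.836, 0.726 and 0.163. Selenoh, Selenoo and Sephs2, the last of which makes the selenium donor, had 0.69, -0.18 and -0.20 with adjusted p of 0.111, 0.699 and 0.728.

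**Figure D3:**
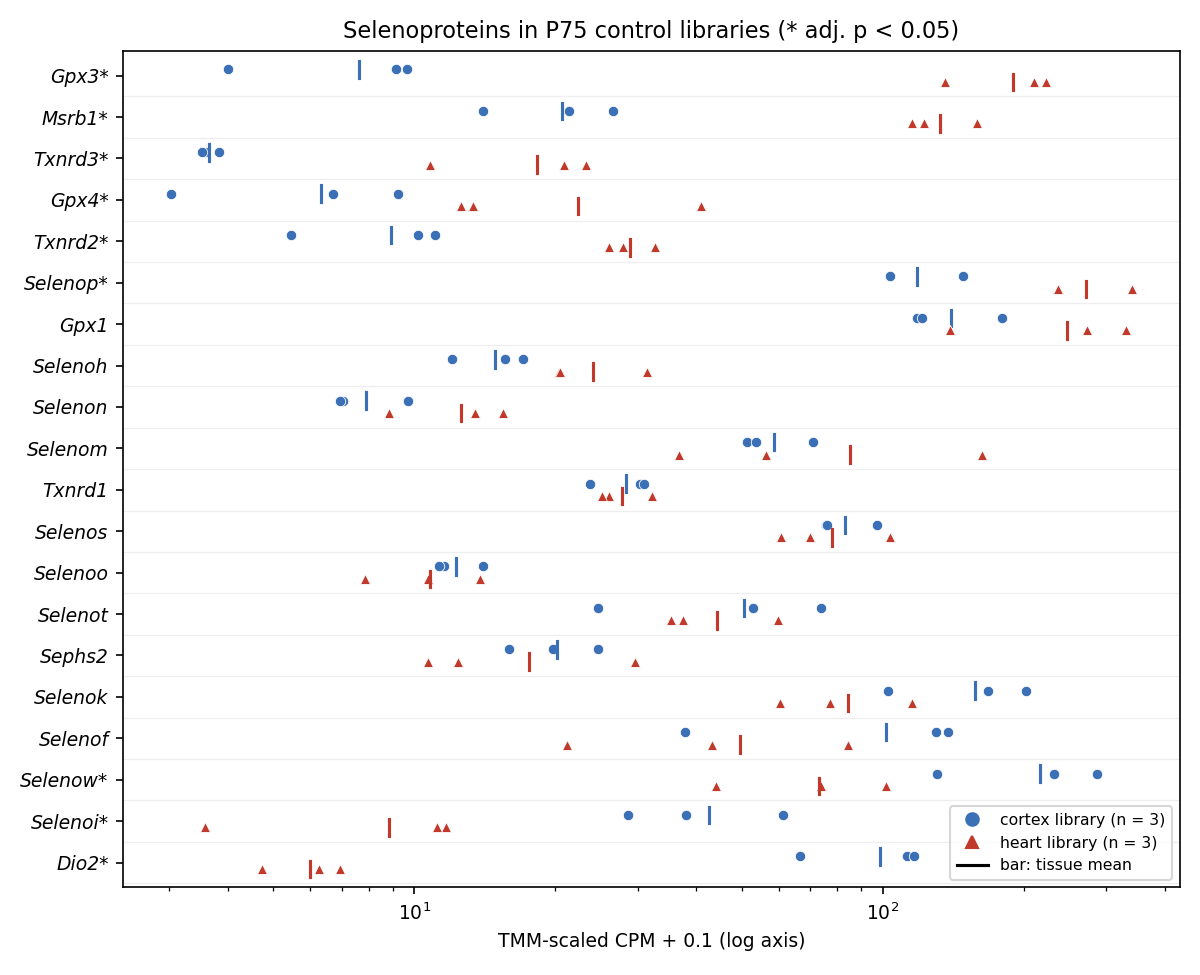
TMM-scaled CPM plus 0.1 (log x axis) of the 20 tested selenoproteins (y axis, ordered by log2 difference) in the 3 cortex libraries (circles) and 3 heart libraries (triangles), with a bar at each tissue mean. Gpx3 at the top and Dio2 at the bottom are the farthest apart, while Txnrd1, Selenos and Selenoo overlap.

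Of 14 genes that make selenocysteine, insert it or supply selenium, 2 were higher in heart and 2 in cortex, beside 23.6% and 28.4% of all tested genes (median 0.19, and -0.60 with library totals). Lrp8, a receptor that takes up Selenop in brain, was at 40.2, 52.4 and 35.8 CPM in cortex and 1.34, 1.18 and 0.605 CPM in heart (-5.36 ± 0.44 SE, adjusted p = 1.13e-05). Secisbp2l, a relative of the hairpin-binding protein, was also higher in cortex (-1.55, adjusted p = 0.00274). Sepsecs itself (chr5:52640087-52669708) was at 5.62, 8.02 and 9.68 CPM in heart and 6.44, 4.88 and 6.44 CPM in cortex, and the groups overlapped (0.39 ± 0.40 SE, adjusted p = 0.436). Secisbp2 (0.72, adjusted p = 0.0916) and Eefsec (-0.57, adjusted p = 0.334), which bind the hairpin and deliver the tRNA, did not pass.

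The remaining calls of that list were close to the threshold. Pstk, the kinase that acts just before Sepsecs, was at 18.2, 21.7 and 28.6 CPM in heart and 11, 8.78 and 13.8 CPM in cortex. Its difference of 1.02 (adjusted p = 0.0299) lost its call without any 1 cortex library or heart 3 (0.115, 0.0854, 0.0536 and 0.0976), or with library totals (0.726). Rpl30, a ribosomal protein that can bind the hairpin and has many gene copies, was at 83.2, 17.2 and 28.2 CPM in heart and 13.1, 13.9 and 18.6 CPM in cortex, so the groups overlapped. Its difference was 1.49 (adjusted p = 0.041). It lost its call without any 1 cortex library (0.132, 0.101 and 0.069) or heart 1 (0.59, adjusted p = 0.187), and with library totals (0.472).

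Of the 27 antioxidant enzymes without selenocysteine, 14 were higher in heart and 3 in cortex, beside 23.6% and 28.4% of all tested genes. Their median was 1.14 (0.23 with library totals, where 5 were higher in heart). Without cortex 1 the number higher in heart was 9. The mitochondrial superoxide dismutase Sod2 was at 401, 955 and 837 CPM in heart and 120, 111 and 119 CPM in cortex (2.65 ± 0.41 SE, adjusted p = 0.000421). Cat, the catalase of peroxisomes, was at 94.2, 168 and 204 CPM in heart and 29.4, 19.5 and 41.0 CPM in cortex (2.37 ± 0.42 SE, adjusted p = 0.000936). Neither pair of groups overlapped. Txn2, the mitochondrial thioredoxin, differed by 1.61 (adjusted p = 0.00356, or 0.133 with library totals), so that it and its reductase Txnrd2 were both higher in heart.

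Other members were less even. Prdx3, the mitochondrial peroxiredoxin, was at 37.5, 106 and 232 CPM in heart and 40.4, 20.2 and 37.9 CPM in cortex, so heart 1 lay within the cortex range. Its difference of 1.93 (adjusted p = 0.0202) was 1.14 without heart 3 (adjusted p = 0.0801) and 1.66 without cortex 2 (0.0704), with an adjusted p of 0.124 with library totals. Sod1, the cytosolic dismutase, was at 1764, 664 and 756 CPM in heart and 447, 500 and 440 CPM in cortex. Its difference of 1.20 (adjusted p = 0.0415) was 0.62 without heart 1 (0.0927), and the adjusted p was 0.141, 0.0839 and 0.131 without cortex 1, 2 or 3 and 0.692 with library totals. Txnip, which binds and inhibits thioredoxin, was at 178, 1198 and 362 CPM in heart against 22.6 to 43.2 CPM in cortex (4.28, adjusted p = 0.000699). Msrb3 and Gpx8, a methionine sulfoxide reductase and a peroxidase of the endoplasmic reticulum, differed by 4.14 and 3.02.

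The genes higher in cortex were those of glutathione synthesis and peroxiredoxin repair. Gclc, the catalytic subunit of the first enzyme of glutathione synthesis, was at 39.5, 47.3 and 44.5 CPM in cortex and 9.36, 13.7 and 15.1 CPM in heart (-1.78 ± 0.32 SE, adjusted p = 0.00105). Its partner Gclm was at 35.5, 36.8 and 35.6 CPM in cortex and 18.5, 23.8 and 17.9 CPM in heart. Srxn1, which repairs overoxidised peroxiredoxins, was at 116, 179 and 96.1 CPM in cortex and 62.3, 24.3 and 23.6 CPM in heart (-1.83 ± 0.46 SE, adjusted p = 0.00736, or 0.0923 without the libraries numbered 2). The groups did not overlap for any of these genes, but the call for Gclm (-0.84, adjusted p = 0.0341) was lost without any 1 cortex library or heart 3 (0.1, 0.063, 0.0977 and 0.101). The Gclm call was also lost with upper-quartile scaling, with all genes kept, with all 16 P75 libraries in 1 fit and without the libraries numbered 2.

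Glutathione S-transferases, which couple glutathione to electrophiles, were higher in heart in 10 of 17 cases and in cortex in 1. Over all tested genes the shares were 23.6% and 28.4%, and the list median was 1.24 (0.31 with library totals). Gstm2, a muscle form, was at 158, 69.9 and 68.8 CPM in heart and at most 2.19 CPM in cortex. Gstk1 of mitochondria and peroxisomes differed by 3.60, Gsto1 by 2.39, and Gstm5, a form known from brain, by -1.45 (adjusted p = 0.00431). The Gstm genes are near copies of each other, so reads may be shared among them.

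Among 17 genes of the NRF2 pathway and of NADPH supply, 8 were higher in heart and 1 in cortex. Over all tested genes the shares were 23.6% and 28.4%, and the list median was 1.16 (0.314 with library totals). Nfe2l2, which encodes NRF2 (chr2:75675513-75704641), was at 56.7, 41.5 and 58.7 CPM in heart and 8.18, 5.85 and 8.02 CPM in cortex (2.82 ± 0.33 SE, adjusted p = 7.34e-05). Its target Nqo1, a quinone reductase, was at 25.7, 27.6 and 37.9 CPM in heart and 2.37 to 3.65 CPM in cortex (3.42, adjusted p = 5.26e-05). Idh2, which makes NADPH in mitochondria, was at 1912, 1162 and 1870 CPM in heart and 28.9, 22.2 and 27.2 CPM in cortex (5.98 ± 0.44 SE). All hearts lay above all cortices for each of them.

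Slc7a11, the cystine transporter that feeds glutathione synthesis (chr3:49892526-50443614), was at 45.8, 41.2 and 28.9 CPM in cortex and 1.61, 0.236 and 0.807 CPM in heart (-5.45 ± 0.54 SE, adjusted p = 2.86e-05). Me1, malic enzyme, was higher in heart (1.40, adjusted p = 0.00242, or 0.256 with library totals). Hmox1, haem oxygenase, was at 135 CPM in heart 1 and at 5.43 and 4.84 CPM in the other hearts, against 2.37 to 3.48 CPM in cortex. Its difference of 4.12 (adjusted p = 0.0161) was 0.89 without heart 1 (0.142), and its adjusted p was 0.051 without cortex 2.

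Of 20 ferroptosis and lipid peroxidation genes, 6 were higher in heart and 7 in cortex, beside 23.6% and 28.4% of all tested genes (median 0.23, and -0.68 with library totals). Aifm2, which encodes the ubiquinone reductase FSP1 that protects membranes beside Gpx4 (chr10:61715263-61739260), was at 42.5, 23.8 and 20.4 CPM in heart and 4.35, 3.17 and 3.73 CPM in cortex (2.93 ± 0.41 SE, adjusted p = 0.000223). Acsl4, which activates arachidonic acid for membrane lipids and so favours ferroptosis (chrX:142317993-142390535), was at 160, 71.2 and 109 CPM in cortex and 9.90, 21.2 and 22.4 CPM in heart (-2.66 ± 0.44 SE, adjusted p = 0.000638). Heart and cortex did not overlap for either gene.

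The acyl chains are made and inserted by other enzymes of the list. Fads2 and Fads1, the desaturases of polyunsaturated fatty acid synthesis, were at 86.3 to 99.7 and 86.6 to 130 CPM in cortex and at 9.36 to 13.5 and 12.3 to 25.6 CPM in heart. Lpcat3, which puts polyunsaturated chains into phospholipids, went the other way (2.25, adjusted p = 0.000984), and Mboat2, which inserts monounsaturated chains, was higher in cortex (-2.25, adjusted p = 0.000905). Of the oxidising enzymes, Alox5 was at 11.3 to 12.3 CPM in heart and at most 0.488 CPM in cortex, Alox12 had no count in cortex and was at least 27.0-fold higher in heart, and Ptgs2 was higher in cortex (-4.17, adjusted p = 0.000885). Cisd1, an iron-sulfur protein of the outer mitochondrial membrane, and Gch1, which starts tetrahydrobiopterin synthesis, were higher in heart by 1.61 and 1.74 and lost their calls with library totals (adjusted p of 0.148 and 0.175).

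**Figure D4:**
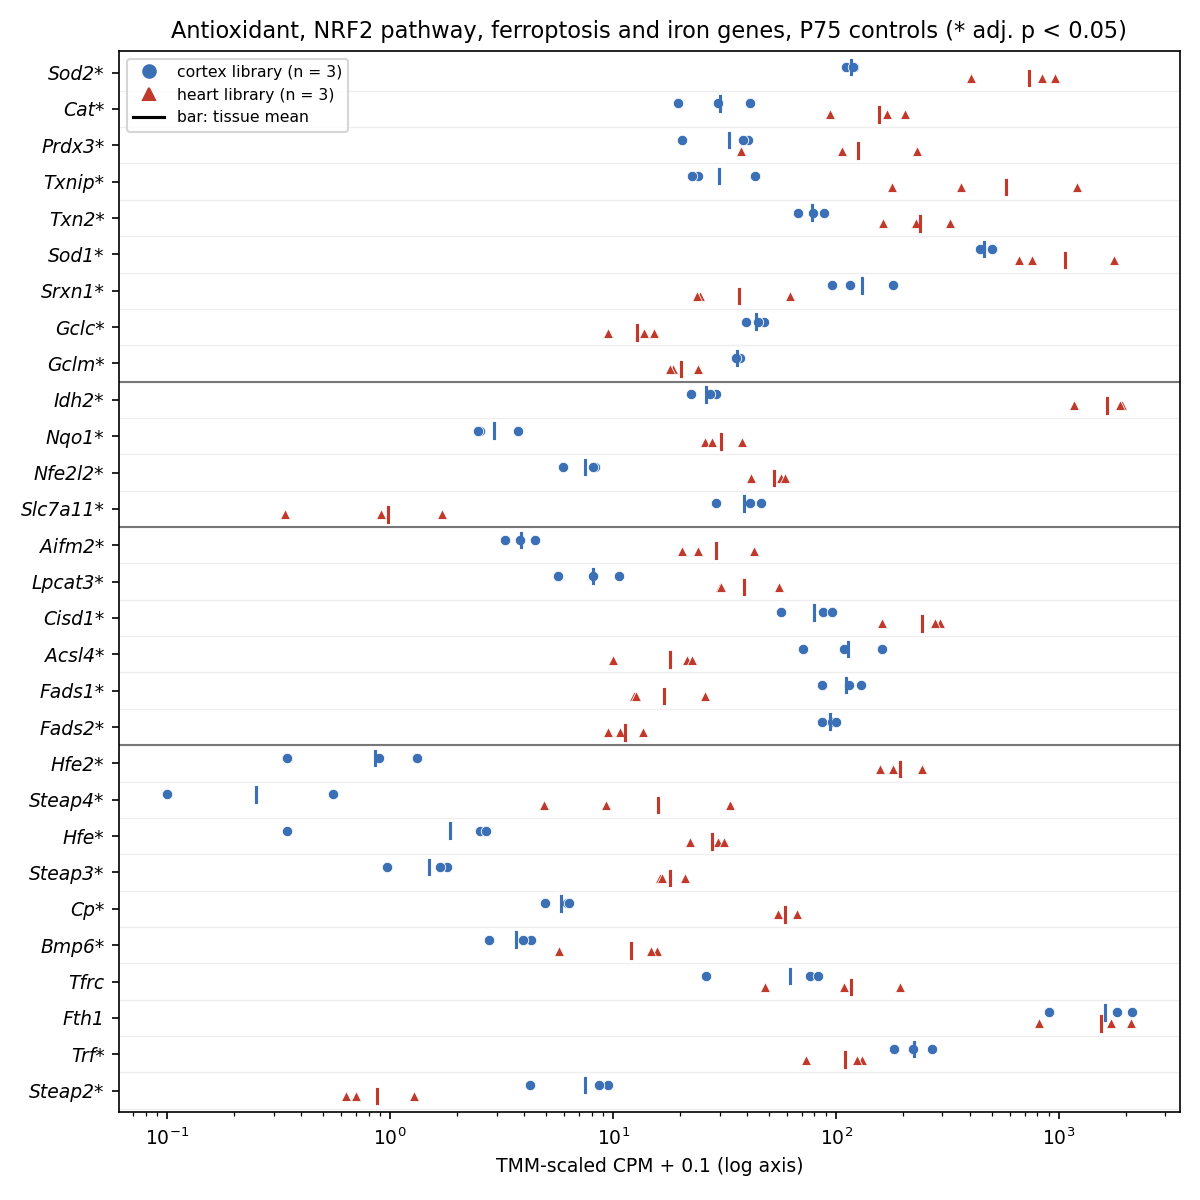
TMM-scaled CPM plus 0.1 (log x axis) of 29 genes (y axis) in the 3 cortex libraries (circles) and 3 heart libraries (triangles), with bars at tissue means; lines part antioxidant, NRF2 pathway, ferroptosis and iron genes. Idh2 and Hfe2 lie far higher in heart, Slc7a11, Fads2 and Acsl4 lie higher in cortex, and Fth1 and Tfrc overlap.

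Of 35 genes of iron uptake, storage, export and regulation, 24 were tested, 9 were higher in heart and 2 in cortex, beside 23.6% and 28.4% of all tested genes (median 0.70, and -0.06 with library totals). The count higher in heart was 6 with library totals or without the libraries numbered 2, and 13 without these and heart 1. The genes higher in heart were mainly sensors, carriers and reductases. Hfe2, which encodes hemojuvelin, a BMP co-receptor of iron sensing known from muscle (chr3:96525172-96529210), was at 156, 180 and 242 CPM in heart and 1.22, 0.244 and 0.790 CPM in cortex (7.89 ± 0.53 SE, adjusted p = 6.97e-06). Hfe, the haemochromatosis protein, was at 29.4, 21.9 and 31.5 CPM in heart and 2.44, 0.244 and 2.60 CPM in cortex (3.86 ± 0.57 SE, adjusted p = 0.000319). Bmp6, the ligand that signals iron load, was at 5.62, 15.6 and 14.7 CPM in heart and 2.68 to 4.18 CPM in cortex (1.73, adjusted p = 0.0122, or 0.18 with library totals). In these 3 genes the groups did not overlap.

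Cp, the copper enzyme ceruloplasmin that oxidises iron on export, was at 54.8, 54.8 and 66.5 CPM in heart and 4.87, 6.10 and 6.21 CPM in cortex (3.35 ± 0.32 SE, adjusted p = 2.17e-05). Steap3 and Steap4, which reduce iron before it enters the cytosol, were higher in heart (3.67 and 6.15), whereas Steap2 was higher in cortex (-3.23, adjusted p = 0.001). Steap4 was uneven, at 4.82, 9.20 and 33.5 CPM in heart. Scara5, a receptor for ferritin, had 1 count in cortex and 182 in heart, a ratio of 263 with a 95% counting interval of 46.6 to 10450.

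Slc25a37, the mitochondrial iron importer of red cell precursors, was at 77.0, 158 and 37.9 CPM in heart and 26.4 to 33.2 CPM in cortex, highest in heart 2, the library with most haemoglobin. Its difference of 1.64 (adjusted p = 0.0159) was 1.05 without heart 2 (0.0529), and its adjusted p was 0.0592 without cortex 3 and 0.199 with library totals. Trf, which encodes transferrin and is made by oligodendrocytes in brain, was at 182, 220 and 268 CPM in cortex and 131, 73.4 and 124 CPM in heart. The groups did not overlap, but its difference of -1.03 (adjusted p = 0.0313) lost its call without any 1 cortex library (0.0548, 0.0553 and 0.124) or heart 2 (0.115). The Trf call was also lost with upper-quartile scaling or without the libraries numbered 2.

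The main storage and uptake genes did not part the tissues; Fth1 and Tfrc are named here after their values were seen. Fth1, the ferritin heavy chain, was at 809, 1714 and 2101 CPM in heart and 1817, 900 and 2114 CPM in cortex. Tfrc, the transferrin receptor, was at 47.9, 108 and 194 CPM in heart and 76.4, 26.1 and 83.2 CPM in cortex. Both pairs of groups overlapped, with differences of -0.06 ± 0.48 (SE, adjusted p = 0.922) and 0.91 ± 0.56 (SE, adjusted p = 0.199). Ftl1, the ferritin light chain, had 6 counts in all heart libraries together and none in cortex, too few for a test. How the authors' counting assigned its reads is not given, so this does not show that its level is low.

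Genes of haem and of iron-sulfur clusters were higher in heart in 18 of 34 cases and in cortex in 2. Over all tested genes the shares were 23.6% and 28.4%, and the list median was 1.11 (0.237 with library totals). Alas1, which starts haem synthesis, was at 40.7, 119 and 121 CPM in heart and 15.5, 20.0 and 23.9 CPM in cortex, and Alad, the next enzyme, differed by 2.19. Bola3 and Fdx1, a late assembly factor and a ferredoxin, differed by 3.20 and 3.03, and no heart library of these genes fell within the cortex range. Hspa9, a mitochondrial chaperone of the pathway, differed by 1.68 (adjusted p = 0.0018, or 0.0896 with library totals).

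The exceptions were Ngb and Flvcr1. Ngb, which encodes the globin of neurons, had 46 counts in cortex and 2 in heart, a ratio of 15.9 with a 95% counting interval of 4.16 to 135. Both heart counts were in heart 1. Flvcr1, a haem and choline transporter, was at 9.57, 9.51 and 9.60 CPM in cortex and 1.61, 5.43 and 4.44 CPM in heart. Its difference of -1.30 (adjusted p = 0.0415) lost its call without any 1 cortex library, heart 1 or heart 3 (adjusted p from 0.0564 to 0.103). The Flvcr1 call was also lost with upper-quartile scaling or without the libraries numbered 2.

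Cell type markers describe what each tissue held. The counts of these and the following marker lists stand beside 23.6% of all tested genes higher in heart and 28.4% higher in cortex. All 19 general neuronal genes, all 16 of excitatory neurons and 13 of 14 of inhibitory neurons were higher in cortex, with medians of -6.75, -6.13 and -7.22. Syt1, the calcium sensor of synaptic release, was at 2172, 1420 and 1740 CPM in cortex and 17.9, 1.65 and 10.3 CPM in heart. Slc17a7, the glutamate transporter of synaptic vesicles, and Gad1, which makes GABA, differed by -4.43 and -7.69. The summed level of the general neuronal genes was 128 to 415 CPM in heart against 8105 to 11700 CPM in cortex.

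Glial genes followed: 16 of 19 astrocyte and 16 of 18 oligodendrocyte genes were higher in cortex (medians -3.65 and -5.96). Slc1a2, Aqp4 and Gfap of astrocytes differed by -7.21, -3.65 and -5.92, and Mbp of myelin by -5.88. Mog, of the myelin surface, had 846 counts in cortex and 2 in heart, a ratio of 292 with a 95% counting interval of 80.7 to 2419. Egr1, Arc and Npas4, genes that respond to neuronal activity, were all higher in cortex, as were 8 of 13 immediate early genes in all, with 1 higher in heart. The log2 differences of Egr1 and Arc were -2.76 and -6.81, and Npas4 had 269 counts in cortex and 1 in heart, a ratio of 186 with a 95% counting interval of 33.1 to 7374.

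In heart, endothelial genes (14 of 16), fibroblast genes (12 of 13), smooth muscle and pericyte genes (9 of 10) and macrophage genes (7 of 10) were higher. Fabp4, a fatty acid carrier of heart capillaries, was at 1279, 859 and 1207 CPM in heart and at most 0.696 CPM in cortex. Kdr and Pecam1, made by endothelium everywhere, differed by 3.99 and 3.49, and Slco1a4, a transporter of the blood-brain barrier, by -4.24. Dcn and Col1a1 of fibroblasts differed by 5.43 and 4.04, and Dpt had 1263 counts in heart and 2 in cortex, a ratio of 913 with a 95% counting interval of 252 to 7549. Acta2, Rgs5 and Abcc9 of mural cells differed by 3.74, 3.13 and 5.57.

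Immune genes separated only partly by resident type, since the microglial genes went both ways. Lyve1 and Cd163, of tissue macrophages, were at 20.1 to 23.5 and 12.3 to 94.4 CPM in heart and at most 0.732 and 1.04 CPM in cortex. P2ry12, of microglia, was higher in cortex (-3.65, adjusted p = 0.00166), as was Cx3cr1 (-1.76, adjusted p = 0.0146, or 0.0504 without cortex 1). Of 16 microglial genes, 6 were higher in cortex, 7 did not pass and 3 were higher in heart, the latter being the complement genes C1qa, C1qb and C1qc. Over all tested genes the shares were 28.4% and 23.6%. C1qb differed by 1.40 (adjusted p = 0.0115, or 0.368 with library totals). C1qa (2.48, adjusted p = 0.0179) was 1.20 without heart 1 (0.0835) and lost its call without cortex 1 or cortex 3 (0.0709 and 0.065) and with library totals (0.0648). C1qc (0.93, adjusted p = 0.0377) lost its call without any 1 cortex library, heart 2 or heart 3 (adjusted p from 0.0501 to 0.11), and with library totals (0.881).

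The adult mutants, Sepsecs Y334C with Gpx4 U/C, gave heart minus cortex differences from libraries not used above. There, 8921 of 13308 tested genes passed (67.0%), with 5 libraries in each tissue. Of the 6923 genes called in controls, 6639 were tested in mutants and 6601 of these (99.4%) had the same sign. Among 21 selenoproteins tested there, 7 were higher in heart and 7 in cortex. Gpx3, Msrb1, Txnrd3, Txnrd2 and Gpx4 differed by 5.50, 2.82, 2.36, 1.58 and 1.13 in mutants, and Dio2, Selenow and Selenoi by -3.25, -2.03 and -0.87, each past the threshold.

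Several genes had other values in the mutants. Selenop, at 1.19 in controls, was at 0.18 (adjusted p = 0.519), Selenoh moved from 0.69 to -1.18 (adjusted p = 0.00024) and Txnrd1 from -0.03 to 1.40 (adjusted p = 7.38e-05). Gclm, at -0.84 in controls, was at 1.62 (adjusted p = 0.000133), Srxn1 at 0.26 (adjusted p = 0.644) and Fth1 at 1.43 (adjusted p = 0.000318). Slc7a11 and Hfe2, at -5.49 and 7.36, stayed near their control values. Whether the tissue difference itself changed with genotype was not tested here.

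The newborn controls allowed the same tissue difference to be compared between ages for the selenoproteins. The labels of the newborn and adult controls name different mutations, so age and mouse line cannot be told apart in this comparison. Over 15160 genes in the 12 control libraries, 1586 (10.5%) had a tissue difference that changed between P1 and P75, and 3 of 21 selenoproteins were among them, a share near that over all genes. Txnrd3 differed by 0.27 at P1 and 2.35 at P75. Scaled over these 12 libraries, its level in cortex was 22.1 to 42.4 CPM at P1 and 3.77 to 4.26 CPM at P75, and in heart 35.8 to 39.7 CPM at P1 and 12.1 to 26.4 CPM at P75. Msrb1 differed by 1.23 at P1 and 2.68 at P75, with heart at 49.9 to 55.1 CPM at P1 and 131 to 179 CPM at P75 and cortex at 15.4 to 29.9 CPM throughout. Dio2 differed by -2.05 and -4.07, with cortex at 13.8 to 42.5 CPM at P1 and 76.2 to 129 CPM at P75. The age terms were 2.11 ± 0.47, 1.47 ± 0.38 and -1.99 ± 0.56 (SE) with adjusted p of 0.0106, 0.0238 and 0.0333. Txnrd3 passed without any 1 of the 12 libraries (adjusted p from 0.0027 to 0.0356), while Msrb1 lost its call without P1 cortex 1 or 2, P1 heart 2 or 3 or P75 cortex 3 (0.0527 to 0.0641). Dio2 lost it without P1 cortex 2 or 3, P1 heart 1 or 2, P75 cortex 1 or 2 or P75 heart 1 or 3 (0.0534 to 0.0872).

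For the other selenoproteins the age term did not pass. Gpx3 differed by 5.70 at P1 and 4.64 at P75, and Gpx4 by 1.25 and 1.79. Gpx1 and Selenon, past the threshold at P1 (1.61 and 1.48) and not at P75 (0.82 and 0.67), had age terms of -0.76 and -0.79 with adjusted p of 0.338 and 0.288. P1 heart control 3 was extracted with another kit than the other 11 control libraries. Without it the age terms were 2.13 for Txnrd3 (adjusted p = 0.0256), 1.43 for Msrb1 (0.0557) and -2.11 for Dio2 (0.0466). With it as the only P1 heart, assumed to vary like the other groups, they were 2.06 (0.107), 1.53 (0.139) and -1.72 (0.246).

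**Figure D5:**
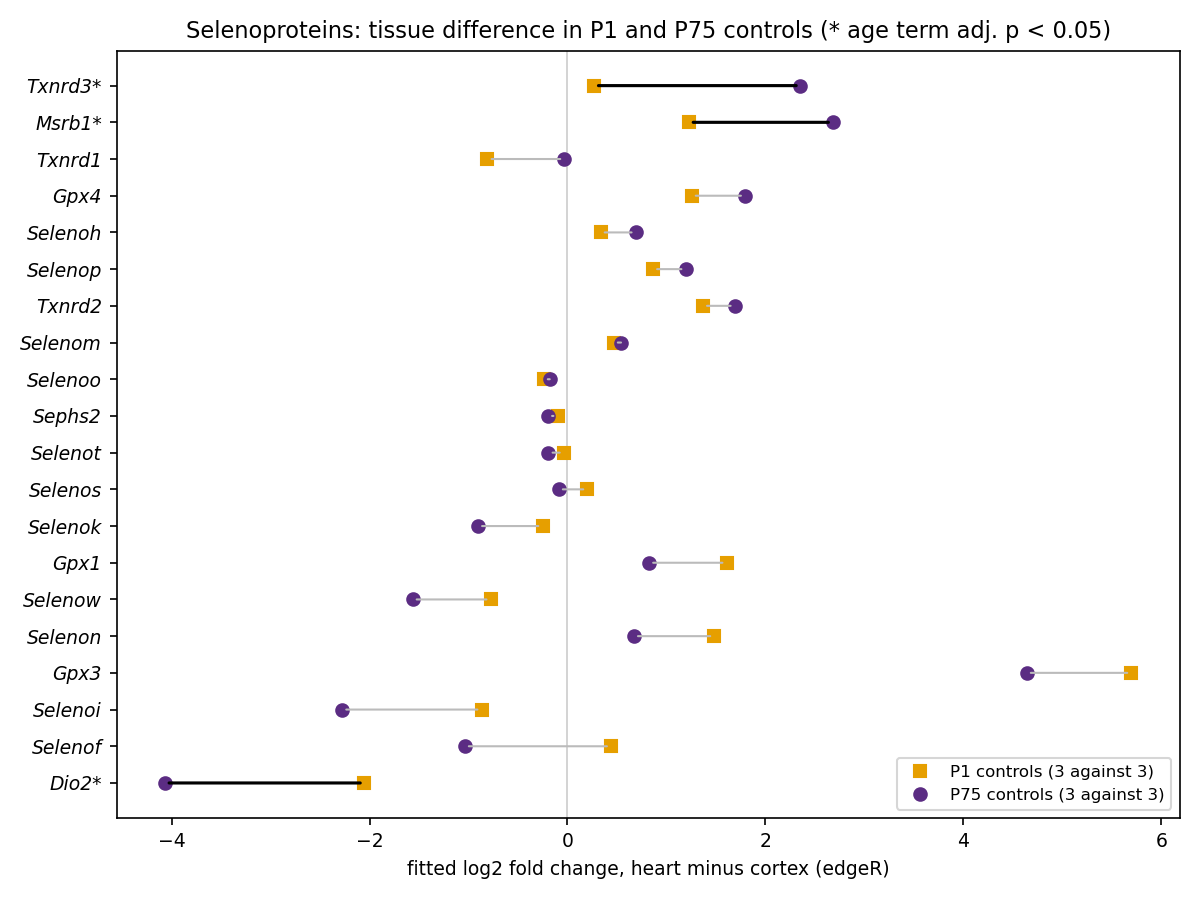
Fitted log2 difference (heart minus cortex, x axis) of 20 selenoproteins (y axis) in P1 controls (squares) and P75 controls (circles), 3 against 3 libraries each, joined by a line that is black where the age term passed an adjusted p of 0.05. The lines of Txnrd3, Msrb1 and Dio2 are black, and Gpx3 stays the farthest to the right at both ages.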

How the data were processed

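Per the labels, RNA was extracted with TRIzol and 3′-end libraries were prepared with QuantSeq, and per the submitters' processing notes reads were aligned with STAR to GRCm38. The STAR version, the counting tool, its annotation and any collapsing of duplicate tags are not stated. The deposited values are raw counts per Ensembl gene, made by the authors, 1 file per library, with 55416 IDs each, of which 52083 had a symbol.

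From these counts, genes were kept with filterByExpr, scaled by TMM and tested with the quasi-likelihood F test of edgeR 4.0.16 (R 4.3.3) on the 6 P75 control libraries, with Benjamini-Hochberg adjustment over all 13308 genes and a threshold of 0.05. The standard error (SE) is the absolute log2 difference over the square root of F. CPM are counts scaled to a common total with TMM factors, and differences are log2 heart minus cortex. Genes without a count in a tissue were given against a floor of 3 counts over the group. Ratios on few counts carry 95% intervals, which cover counting error only. The mutants (5 against 5) and the interaction of tissue and age (12 control libraries) were fitted in the same way. Gene positions are those of GENCODE M21. The procedure was run on simulated counts in which few genes differed, equally in both directions. This cannot test the scaling where as many genes differ as between these tissues.

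The gene lists and members were chosen with earlier results of these data known. Named were the selenoproteins, up to 6 members of each other list with the smallest p in its main direction and up to 3 in the other, the paralogue pairs, the 12 largest differences in each direction at a mean of at least 100 CPM, and tissue markers. Not every gene of this rule is printed, some items are not reported here, and Fth1, Tfrc, Ftl1, C1qb and C1qc were named after their values were seen, as were genes that did not pass outside the selenoproteins and paralogues. Alternatives were RLE and upper-quartile scaling, library totals, all genes kept, genes with a mean count of 10 or more, mitochondrial and haemoglobin genes left out, DESeq2 1.42.0, limma-voom (limma 3.58.1), glmTreat against a fold of 2, an adjusted p under 0.01, all 16 P75 libraries in 1 fit, the replicate number as a block and each library left out. Leaving out the libraries numbered 2, alone or with heart 1, was chosen after seeing the data. No label says that numbers pair animals, and the main fit ignores any pairing. The p-values set each difference against the spread between these libraries, estimated with information shared across genes.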

Additional observations from a re-analysis of the deposited data

Results flagged for a closer look

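The tissue difference of 3 selenoproteins changed between P1 and P75 in the test of that change itself (edgeR, adjusted over all genes tested). Age and mouse line cannot be told apart there, since the labels of the newborn and adult controls name different mutations. Txnrd3 (change of 2.11 on the log2 scale, adjusted p = 0.0106) and Msrb1 (1.47, adjusted p = 0.0238) had a larger excess in heart at P75. Dio2 (-1.99, adjusted p = 0.0333) had a larger excess in cortex at P75. Over all genes tested, 1586 of 15160 (10.5%) had such a change, and 3 of 21 selenoproteins is a share near it. Txnrd3 passed without any 1 of the 12 libraries (adjusted p from 0.0027 to 0.0356). Msrb1 lost its call without P1 cortex 1 or 2, P1 heart 2 or 3 or P75 cortex 3 (adjusted p from 0.0527 to 0.0641). Dio2 lost it without P1 cortex 2 or 3, P1 heart 1 or 2, P75 cortex 1 or 2 or P75 heart 1 or 3 (adjusted p from 0.0534 to 0.0872).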

How the results depend on the processing

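Of 194 named genes, 174 passed the test, and 146 of these had an adjusted p under 0.05 in every alternative fit that tested them. The stricter alternatives, glmTreat and an adjusted p under 0.01, were applied only to the counts of all genes. None of the 174 changed direction, and 17 lost their call without at least 1 library. With library totals, 1692 genes were higher in heart, 1074 of them at least 4-fold, with 3 selenoproteins higher in heart and 5 in cortex and 5 antioxidant enzymes higher in heart. Against a fold of 2 (glmTreat), 2083 genes were higher in heart. Selenoproteins higher in cortex numbered 6 without a count filter and 5 by limma-voom, with all 16 P75 libraries, or without heart 1 and the libraries numbered 2. The age term had 0 selenoproteins without the first 2 P1 heart controls and 1 without P1 cortex 2 or without P1 heart 2, and 1 to 3 over all libraries left out singly.

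Leaving out each P75 library gave 2507 to 3199 genes higher in heart and 3253 to 3900 in cortex, 1861 to 2089 and 2555 to 2813 of them at least 4-fold, 4 to 7 selenoproteins higher in heart and 3 to 5 in cortex, 9 to 14 antioxidant enzymes and 7 to 10 iron genes higher in heart. The 9 antioxidant enzymes arose without cortex 1, and 5 selenoproteins in cortex without cortex 2 or heart 3. Log2 differences of genes that did not pass then ran from -0.37 to 0.26 for Fth1, -2.44 to 3.24 for Myl4, -0.34 to 0.91 for Selenom, -0.39 to 0.0060 for Selenoo, -0.29 to 0.073 for Selenos, -0.53 to 0.15 for Selenot, -0.80 to 0.12 for Sephs2 and -0.16 to 0.098 for Txnrd1.

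Other sign changes were also in genes that did not pass. With library totals the differences were -0.11 for Gpx1, -0.23 for Selenoh, -0.21 for Selenon, -0.54 for Selenom, -0.42 for Sepsecs and -0.11 for Secisbp2. With upper-quartile scaling they were 0.16 for Txnrd1, 0.084 for Selenos, 0.0096 for Selenoo, 0.0030 for Selenot, 0.0043 for Sephs2 and 0.13 for Fth1. Txnrd1 was at 0.0047 with RLE, 0.0038 by DESeq2 and 0.045 with all 16 libraries, where Fth1 was at 0.0082, and Selenos was at 0.017 by limma-voom. Without the libraries numbered 2, 13 named genes lost their call, Myl4 was at -2.87, Txnrd1 at 0.0037 and Selenoo at 0.0066. Without these and heart 1, Myl4 was at -2.73, Selenom at -0.48, Txnrd1 at 0.10, Selenoo at 0.31, Sephs2 at 0.44 and Fth1 at 0.13. The cause of these changes was not tested.

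Same-numbered libraries deviated from their tissue means with correlations of -0.106, 0.32 and 0.425, and unlike-numbered ones with -0.48 to 0.322. Xist and Ddx3y matched by number in both tissues, whereas Ccdc36 was high in heart 1 and low in cortex 1. No label says that the numbers pair animals, so the main fit has no pairing. Whether they do was not tested. With the replicate number as a block, 3120 genes were higher in heart and 3890 in cortex, 6 and 3 selenoproteins kept these counts, and the age term had 3. Under the block Myl4 was at -1.03, Sdhd and Cox6a1 passed (adjusted p of 0.00893 and 0.0308), and Rpl30 and Sod1 did not (0.0733 and 0.0586).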
